A study of Caenorhabditis elegans with 3 samples.

Results

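The genes described here encode the enzymes and large adaptor complexes that transcribe nuclear genes. They are the 56 protein-coding genes of C. elegans whose symbols begin with rpb- (11 genes), rpoa- (4), rpc- (4), mdt- (20) or taf- (17), out of 19973 protein-coding genes on the 6 nuclear chromosomes. The members were chosen by symbol prefix with these peak calls known, so the counts and signals below describe the members and carry no test. A gene was called bound when the summit of an ELT-3 peak in the thresholded list lay between 1000 bp upstream and 200 bp downstream of any of its transcript starts.

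RNA polymerase I makes the large ribosomal RNAs, RNA polymerase II makes messenger RNAs and RNA polymerase III makes transfer RNAs and other small RNAs, and a few small subunits are built into all of these enzymes. Mediator relays signals from DNA-bound transcription factors to RNA polymerase II, and the TAF proteins, together with the TATA-binding protein, form TFIID, which recognises core promoters. ELT-3 is a GATA-type transcription factor known from the epidermis of the worm, whereas the genes described here are needed in nearly every cell.

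ELT-3 binding was measured by chromatin immunoprecipitation and sequencing (ChIP-seq) in whole L1 larvae, the first larval stage. All worms were of strain OP75, with the unc-119(ed3) mutation on chromosome III and the transgene wgIs75, and stably expressed ELT-3 fused at the C terminus to GFP-FLAG. Males and females were pooled, and sonication was used to break the chromatin. There is 1 group of 3 libraries from 2 biological replicates, of which the first was sequenced as 2 technical libraries. No other strain, stage or condition was compared. A peak seen in whole larvae does not show in which cells the factor sat, and the tagged protein adds to whatever ELT-3 the animal makes itself. The thresholded list held 4530 peaks, and these are the 4530 peaks with the highest signal among the 26508 of the relaxed pooled list. Peak signals are values of the authors on a scale that is not stated. Signals serve to rank peaks and to give medians, and they are compared only within a list. The lists hold no read counts, so the depth behind each peak is unknown.

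The DNA under the summits is shown first, for the genes on which the account of sequences turns. Each sequence below runs 5′ to 3′ on the strand of the gene, from 50 bases before the summit to 50 bases after it, and comes from the RefSeq assembly WBcel235 (ce11). Capitals mark GATA sites as well as GAGAGA and also CGCAA, each on either strand, so that CGCAA also appears as TTGCG. Such sites read AGATAA, in which the first base may also be T and the last base may also be G. The first set holds the polymerase subunit genes with a GATA site or GAGAGA, at chrII:14059919-14060019 for rpb-11, chrIII:4918077-4918177 on the minus strand for rpb-8 and chrII:13678904-13679004 on the minus strand for rpoa-1.
rpb-11: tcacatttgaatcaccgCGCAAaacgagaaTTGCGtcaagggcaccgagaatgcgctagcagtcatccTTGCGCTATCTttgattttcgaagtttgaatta
rpb-8: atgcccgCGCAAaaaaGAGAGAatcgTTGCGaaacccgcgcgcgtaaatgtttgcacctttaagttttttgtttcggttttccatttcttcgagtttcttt
rpoa-1: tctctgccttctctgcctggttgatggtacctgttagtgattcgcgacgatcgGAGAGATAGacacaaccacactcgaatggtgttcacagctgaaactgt

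The second set holds Mediator subunit genes with CGCAA, which stands more than once in mdt-19 and mdt-22. In mdt-1.2 it stands once, and that window also holds a GATA site. The peaks of mdt-1.2 and mdt-22 had no overlapping peak in replicate 2, and the mdt-19 summit lay nearer to the start of apb-1. The sequences lie at chrX:17151327-17151427 for mdt-1.2, chrIII:2597236-2597336 for mdt-19 and chrII:10301092-10301192 for mdt-22, all on the plus strand.
mdt-1.2: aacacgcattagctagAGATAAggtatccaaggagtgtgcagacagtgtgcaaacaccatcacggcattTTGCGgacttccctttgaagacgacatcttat
mdt-19: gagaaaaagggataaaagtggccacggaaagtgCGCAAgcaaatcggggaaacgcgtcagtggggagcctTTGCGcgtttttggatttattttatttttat
mdt-22: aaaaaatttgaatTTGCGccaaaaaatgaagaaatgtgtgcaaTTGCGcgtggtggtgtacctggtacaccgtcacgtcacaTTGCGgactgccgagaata

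The third set holds summits with none of the marked sequences, from the other families. They lie at chrIV:7165827-7165927 on the minus strand for rpc-1, chrV:4686828-4686928 on the plus strand for taf-10 and chrIII:10505343-10505443 on the minus strand for taf-11.3.
rpc-1: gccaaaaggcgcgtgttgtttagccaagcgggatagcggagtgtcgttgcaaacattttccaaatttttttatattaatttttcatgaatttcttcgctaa
taf-10: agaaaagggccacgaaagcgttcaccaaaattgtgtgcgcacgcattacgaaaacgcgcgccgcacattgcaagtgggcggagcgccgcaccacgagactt
taf-11.3: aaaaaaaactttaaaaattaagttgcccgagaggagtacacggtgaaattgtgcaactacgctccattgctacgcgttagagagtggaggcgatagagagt

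ELT-3 peaks lay at the promoters of 20 of the 56 genes, or 35.7% (95% exact interval 23.4 to 49.6%), beside 15.5% of all protein-coding genes. The RNA polymerase II prefix stood highest, with 7 of 11 rpb- genes bound (63.6%, interval 30.8 to 89.1%). Mediator followed with 7 of 20 mdt- genes (35%, 15.4 to 59.2%) and TFIID with 4 of 17 taf- genes (23.5%, 6.81 to 49.9%). One rpoa- gene of 4 and one rpc- gene of 4 were bound, or 25% each with intervals from 0.631 to 80.6%. The intervals of all 5 prefixes overlap one another. The differences between prefixes were not tested, since these calls were known when the genes were chosen.

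**Figure D1:**
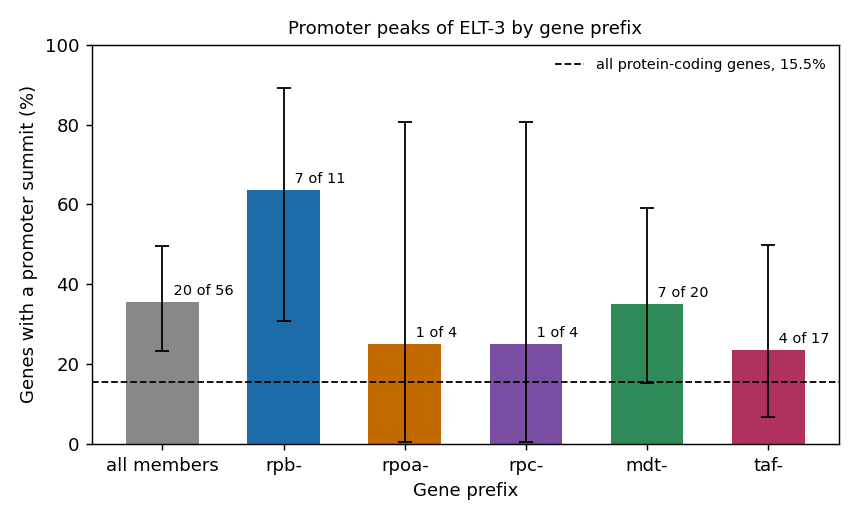
The plot of bound genes by prefix gives the percentage of genes with a promoter summit in the thresholded list (vertical axis) for all members and for each prefix (horizontal axis). Bars are percentages, error bars are 95% exact intervals over genes, numbers beside the bars are bound genes of all genes, and the dashed line is the 15.5% of all protein-coding genes; rpb- stands highest at 63.6%.

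RNA polymerase II has 11 subunit genes under the rpb- prefix, and its largest subunit is encoded by ama-1. The strongest rpb- peak was at rpb-11, with a signal of 135 and rank 315 of 4530, and its summit lay 116 bp upstream of the start at chrII:14059940-14060019. Next came rpb-3, with 117.6 and rank 513, whose summit lay 145 bp upstream. The proteins Rpb3 and Rpb11 form the pair on which the enzyme is assembled. Their genes had the strongest peaks of the prefix, and a link between both facts was not tested. The rpb-3 summit was nearer to the start of another gene, pas-4, at 132 bp. The gene of Rpb7, which forms the stalk of the enzyme together with Rpb4, had a signal of 82.7 with the summit 13 bp inside the gene, in a coding exon. Its stalk partner rpb-4 was not bound and had a relaxed-list peak of 29.7. The remaining bound genes were rpb-10 (68.6), rpb-5 (58.1), rpb-8 (44.3) and rpb-6 (35.8).

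RefSeq names 5 of the rpb- products as subunits common to all 3 polymerases, and 4 of their genes were bound: rpb-5, rpb-6, rpb-8 and rpb-10. The fifth, rpb-12, had a relaxed-list peak of 32.4 with the summit 301 bp upstream, just under the lowest signal in the thresholded list. Of the other 6 rpb- genes, 3 were bound, and the share over all protein-coding genes was 15.5%. With each summit tied to the nearest start, rpb-10 of the common subunits and rpb-3 and rpb-7 of the others were lost. Counts this small cannot decide whether both sets differ, and the difference was not tested. The unbound ones were rpb-2, for the second largest subunit, rpb-4 and rpb-9. No peak of even the relaxed list lay at the promoter of rpb-2 or rpb-9.

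Among the polymerase I genes, the bound member was rpoa-1, for the largest subunit, with a signal of 42.6 and rank 3668. Its summit lay 130 bp upstream of an internal transcript start and 15841 bp inside the gene as counted from the outermost start, in an intron. With the outermost start as the promoter, rpoa-1 was not bound. The second largest subunit's gene, rpoa-2, had a relaxed-list signal of 24.0 and rpoa-12 had 18.6, while rpoa-49, annotated as A49-like, had none. Among the polymerase III genes, rpc-1, for the largest subunit, was bound with a signal of 36.5, rank 4375 and the summit 129 bp upstream. Relaxed-list signals were 15.2 at rpc-25 and 12.7 at rpc-11, and rpc-2, for the second largest subunit, had none. Each prefix thus had 1 of 4 genes bound, beside 15.5% of all protein-coding genes. Both bound genes encode the largest subunit of their enzyme, and both peaks were in the weaker part of the list. With 1 bound gene per prefix, this cannot be read as a pattern.

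Mediator is divided into a head, a middle and a tail, as known from yeast and human cells. The genes were grouped by symbol after the calls were seen. Bound were 3 of 7 head genes (mdt-6, mdt-18 and mdt-22) and 3 of 7 middle genes (mdt-1.2, mdt-9 and mdt-19). Of the 6 others, 1 was bound (mdt-26), and the share over all protein-coding genes was 15.5%. Only mdt-18 in the head, mdt-1.2 in the middle and mdt-26 among the others had their own start as the nearest coding start. The head gene mdt-6 had the strongest peak of the prefix, with a signal of 140.4 and rank 282. That summit lay 909 bp upstream of mdt-6, in a UTR of Y57E12AL.1, whose start was 3 bp away. It also lay 63 bp upstream of Y57E12AL.6, which runs the same way as mdt-6 and ends 39 bp ahead of it. The middle gene mdt-19 followed with 122.3 and rank 456, and its summit lay 767 bp upstream and nearer to apb-1, at 252 bp from that gene's start. The strongest pair of Mediator peaks thus lay far from the Mediator genes and close to other genes.

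The other bound Mediator genes had summits within 146 bp of a start. Signals were 69.5 at mdt-9, 66.0 at mdt-26, 58.7 at mdt-1.2, 49.5 at mdt-18 and 36.7 at mdt-22. RefSeq annotates the product of mdt-9 as guanine nucleotide exchange factor MSS4, so the symbol and the annotated product differ there, and without mdt-9 the prefix had 6 of 19 genes bound. The product of mdt-26 is annotated by a TFIIS N-terminal domain, which links Mediator to elongation factors in human cells. At mdt-18 the summit lay 125 bp upstream of an internal start and 1281 bp inside the gene from its outermost start, in a UTR of the gene.

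The taf- gene with the strongest peak was taf-4, with a signal of 144.5 and rank 260, the highest of all 56 genes. Its summit lay 306 bp upstream, at chrI:382441-382581. TAF4 is a scaffold of TFIID that pairs with TAF12 through a histone fold. Then came taf-11.3 with 113.0, one of 3 taf-11 genes, and taf-10 with 59.3, and taf-8 with 37.4. The proteins TAF8 and TAF10 pair with each other in TFIID. All 4 bound taf- genes were among the 12 whose proteins are known in other species for histone folds. These 12 make up most of the 17 taf- genes. Of the 5 others 0 were bound, beside 15.5% of all protein-coding genes. That 0 depends on the list, since taf-5, which is in the group of 5, was among the strongest peaks of both replicates. In the relaxed pooled list, 10 of the 12 and 2 of the 5 had a promoter peak. Counts this small cannot decide whether the groups differ. This grouping was made after the calls were seen.

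**Figure D2:**
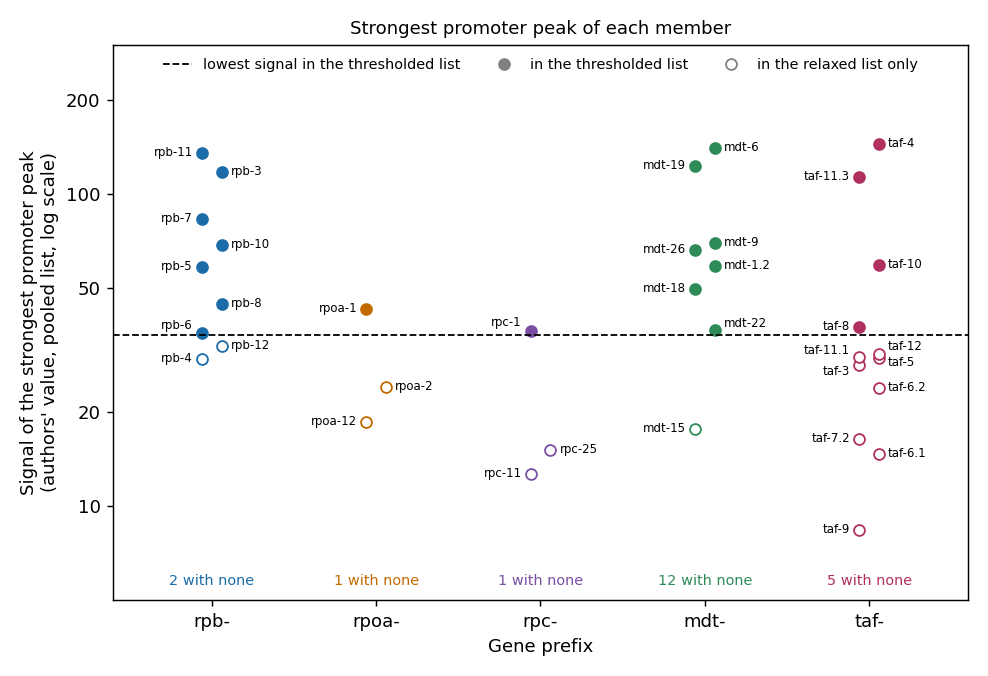
The plot of the strongest promoter peak of each member gives the authors' signal in the pooled list on a log scale (vertical axis) by prefix (horizontal axis). Filled points are bound genes and open points are genes with a peak in the relaxed list alone. The dashed line is the lowest signal of the thresholded list, 35.2, and the numbers at the bottom count genes with no promoter peak. Of the 20 mdt- genes 12 have none, and 40% have one, beside 41.9% of all protein-coding genes.

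The weakest bound members were rpb-6 at 35.8, rpc-1 at 36.5, mdt-22 at 36.7 and taf-8 at 37.4, and the lowest signal in the thresholded list was 35.2. The strongest members outside it were rpb-12 at 32.4, taf-12 at 30.7, taf-11.1 at 30.1, taf-5 at 29.8 and rpb-4 at 29.7. In the relaxed pooled list, 35 of the 56 genes had a promoter summit (62.5%), beside 41.9% of all protein-coding genes. The order of the prefixes was then different, with rpb- at 9 of 11, rpoa- and rpc- at 3 of 4 each, taf- at 12 of 17 (70.6%) and mdt- last at 8 of 20 (40%). The 15 genes that only the relaxed list held had signals from 8.41 to 32.4 with a median of 23.9, and 8 of them were taf- genes. Among the taf- genes with weak peaks were taf-3 at 28.4, taf-6.2 at 23.9, taf-7.2 at 16.4, taf-6.1 at 14.7 and taf-9 at 8.41. Only mdt-15, a tail subunit known for lipid metabolism genes in the worm, was in this class among the mdt- genes, with 17.7. No promoter peak of the relaxed list was found at 12 of 20 mdt- genes and at 5 of 17 taf- genes. The mdt- share with a peak, 40%, was thus close to the 41.9% of all protein-coding genes, while the taf- share of 70.6% was higher. This contrast between both prefixes was noticed in the data and was not tested.

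The median signal of the bound members was 62.6 (interval of the median by order statistics 44.3 to 113), beside 63.3 over all 3092 bound genes. Among the prefixes, the bound genes had medians of 68.6 for rpb-, 66.0 for mdt- and 86.2 for taf-, and their ranges overlapped. Among the 2265 peaks of highest signal, which make up 50% of the list, 10 members remained (17.9%) beside 8.35% of all genes. They were 4 rpb-, 4 mdt- and 2 taf- genes and no rpoa- or rpc- gene.

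The summits lay close to the starts. The median position of the summit was -144 bp from the start (interval -225 to -121), beside -230 bp over all bound genes, where negative values are upstream. At 17 of 20 members (85%) the summit lay in the first 400 bp upstream, beside 67.9% of all bound genes. The exceptions were mdt-6, mdt-19 and rpb-7.

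**Figure D3:**
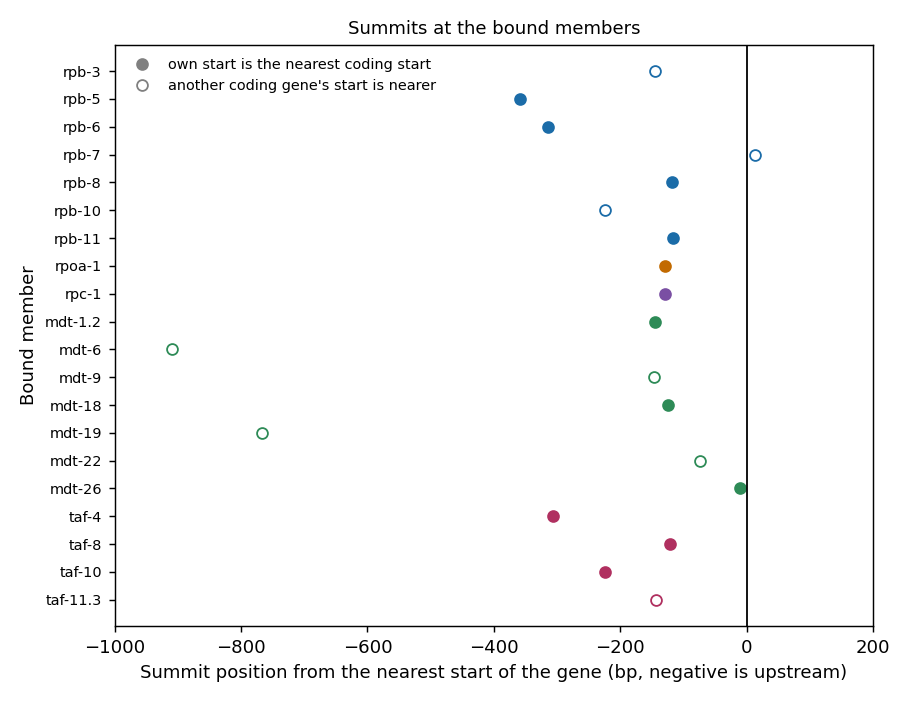
The plot of summits at the 20 bound members gives the position of the summit from the nearest start of the gene in bp, negative being upstream (horizontal axis), for each gene (vertical axis, coloured by prefix). Filled points mark genes whose own start is the nearest coding start, which holds for 12 of 20, and open points those with another coding gene's start nearer; most points lie close to the median of -144 bp.

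Many of these promoters are shared. At 15 of the 20 bound members (75%) the same summit also lay in the promoter of another protein-coding gene, beside 44.7% of all bound genes. This count depends on the promoter width: from 500 bp upstream to 100 bp downstream, 8 of 18 bound members (44.4%) shared their peak, beside 36.9% of bound genes. At 12 of the 20 (60%) a gene on the other strand shared it, beside 41.5%. The rpb-3 summit lay 132 bp upstream of pas-4, a proteasome subunit gene, which runs the other way and was nearer. The taf-11.3 summit likewise lay 87 bp upstream of urm-1, and the mdt-22 summit 62 bp upstream of clpp-1, the gene of a mitochondrial protease, inside an intron of a clpp-1 transcript. At rpb-7 the neighbour was Y54E10BR.2, at 10 bp. Such a summit cannot be given to one gene of the pair.

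When each summit was tied only to the nearest protein-coding start, 12 members (21.4%) kept a peak, beside 12.1% of all genes. They were rpb-5, rpb-6, rpb-8, rpb-11, rpoa-1, rpc-1, mdt-1.2, mdt-18, mdt-26, taf-4, taf-8 and taf-10. The rpb- count fell from 7 to 4 (36.4%) and the mdt- count from 7 to 3 (15%). The mdt- share was then close to the 12.1% of all genes. Peaks shared with no other coding gene were those of rpb-5, rpoa-1, mdt-1.2, taf-8 and taf-10.

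Each replicate was also examined alone, through its 4530 strongest peaks. Replicate 1 had a peak at the promoters of 21 members (37.5%), beside 15.8% of all genes, and replicate 2 at 18 (32.1%), beside 14.1%. For rpb- the counts were 7 and 8, for taf- 5 and 4, for rpoa- and rpc- 1 each in both, and for mdt- 7 and 4. The peaks of taf-4, rpb-11, rpb-3 and mdt-6 ranked in the first 850 of both replicates. At taf-4 the ranks were 344 and 255, at rpb-11 347 and 736, at rpb-3 406 and 830, and at mdt-6 163 and 850. All 7 bound rpb- genes were thus among the strongest of each replicate, with rpb-12 added in replicate 2.

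Of the bound members, 18 of 20 (90%) overlapped a relaxed-list peak in both replicates, beside 95.9% of the 2591 peaks with a summit in a promoter. The exceptions were mdt-1.2, with rank 1146 in replicate 1, and mdt-22, with rank 2828, and neither had a peak in replicate 2. At mdt-26 the ranks were 1563 and 12092, and at taf-10 1109 and 5147, while at taf-8 they were 7014 and 2668. At 15 of 20 (75%) the peak was among the strongest of both replicates, beside 61.8% of promoter peaks. The replicate lists differ in length, and a replicate's depth is unknown, so what part depth had in these differences was not tested. The gene taf-5 was among the strongest of both replicates but was not in the thresholded list.

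**Figure D4:**
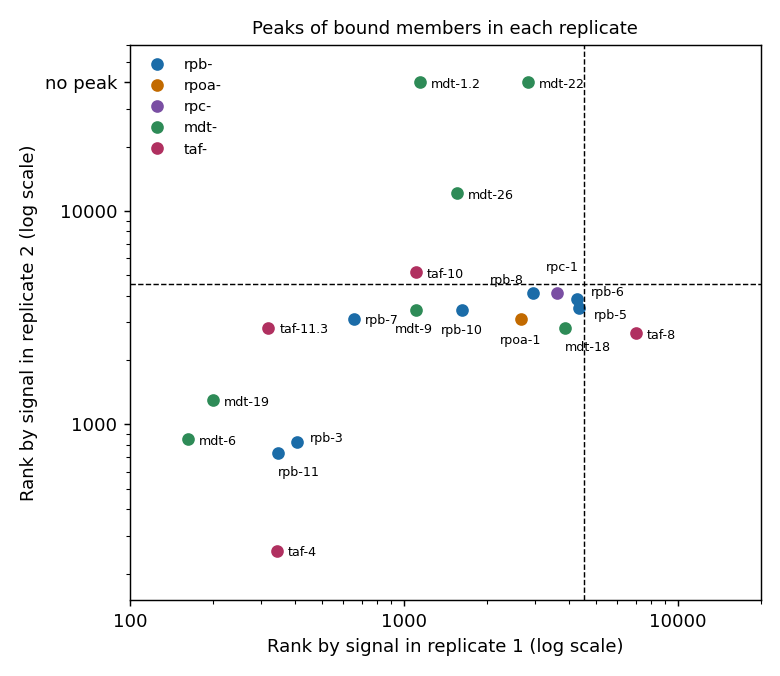
The plot of peaks in each replicate gives the rank by signal in the relaxed list of replicate 1 (horizontal axis, log scale) and of replicate 2 (vertical axis, log scale) for each of the 20 bound members, coloured by prefix. Dashed lines mark rank 4530 and the top row holds genes with no peak in replicate 2, which are mdt-1.2 and mdt-22; 15 genes lie below and to the left of both lines.

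GATA sites were not frequent at these summits. Within 50 bp of the summit, 3 of 20 members (15%, exact interval 3.21 to 37.9%) had one, and they were rpb-11, mdt-1.2 and rpoa-1. The share was 31.5% over all 2591 promoter summits. In equally wide windows 500 bp to either side, the members had 30% and 15%, and all promoter summits 20.8% and 18.9%. In a window of the same width centred at the members' median distance, 23.7% of all protein-coding genes had a GATA site. The members' share at the summit was thus no higher than in the flanks or in promoters at large. A missing match says only that these letters are not in the window.

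Other sequences that are frequent at the peaks were counted in the same windows. GAGAGA stood at 2 of 20 members (10%), rpb-8 and rpoa-1, beside 22.8% of promoter summits and 8.52% of all promoters. In rpoa-1 it overlaps the GATA site, as GAGAGATAG. CTGCGT stood at 0 of 20, which allows a share of up to 16.8% by the exact interval, beside 14.1% of promoter summits and 3.14% of all promoters. At 16 of the 20 members neither a GATA site nor GAGAGA nor CTGCGT was found. Within 100 bp of the summit, GAGAGA stood at 5 members (25%), beside 35.3% of promoter summits, and CTGCGT at 2 (10%), beside 19.3%.

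Over all 512 sequences of 5 bases, counted with their reverse complement, CGCAA had the largest excess at the members' summits over all promoter summits. It stood at 13 of 20 members (65%), beside 26.3% of promoter summits and 11.8% of all promoters. In the flanking windows of the members it stood at 10% and 15%. By prefix it was at 6 of 7 rpb- and 6 of 7 mdt- summits, and at 1 of 4 taf- summits, that of taf-4, and at neither rpoa-1 nor rpc-1. Several summits hold it more than once, such as rpb-11 and mdt-22 with 3 copies each. It was picked from these same sequences for the size of this excess, so its share among the members is a description. The rpb- and mdt- genes did not share peaks with each other. Base composition was close to that of other peaks, with a median GC content of 44.6% over the 20 windows beside 43.6% over promoter summits, and the extremes were 32.7% at taf-8 and 65.3% at mdt-26.

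The unbound members often follow closely behind another gene. In C. elegans, genes that follow one another on the same strand are often transcribed together as an operon from a promoter ahead of the first gene. Among the 36 unbound members, 20 (55.6%) had a protein-coding gene on the same strand that ended within 500 bp upstream of their start or overlapped it by fewer than 50 bp, whereas 3 of the 20 bound members (15%) did, namely rpb-5, rpb-8 and mdt-6. The overlap concerned 1 member, mdt-31, with a gap of -15 bp to snpc-4. At mdt-6 the summit lay ahead of the upstream neighbour, Y57E12AL.6, and with a promoter of 500 bp upstream mdt-6 was not bound. The shares over all protein-coding genes were 19.7% of unbound and 13.2% of bound genes. By prefix, the count among unbound genes was 10 of 13 for mdt-, 4 of 13 for taf-, 2 of 4 for rpb- and 2 of 3 each for rpoa- and rpc-. This measure was chosen after the calls were seen.

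**Figure D5:**
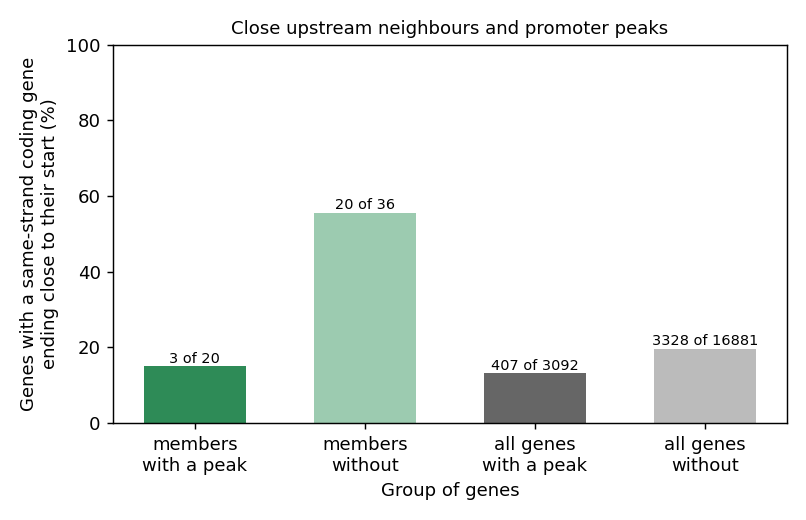
The plot of close upstream neighbours gives the percentage of genes with a same-strand coding gene ending within 500 bp upstream of their start or overlapping it by fewer than 50 bp (vertical axis) for members and for all protein-coding genes, with and without an ELT-3 promoter peak (horizontal axis). Numbers over the bars are genes with such a neighbour of all genes in the group; the bar of unbound members, at 55.6%, is the highest.

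For 8 of those 20 genes (40%) the next gene upstream was itself bound, beside 20.6% of the 3328 unbound genes with such a neighbour over the genome. The strongest peak of this kind lay at wip-1, with a signal of 158, and mdt-11 starts 104 bp behind the end of that gene. Others were F44B9.8 ahead of mdt-30 at 81.4, hach-1 ahead of rpc-2 at 69.2 and prmt-1 ahead of mdt-17 at 58.0. The remaining ones were nfyc-1 ahead of rpoa-49 at 57.3, snpc-4 ahead of mdt-31 at 50.9, atx-3 ahead of mdt-28 at 42.4 and Y62F5A.12 ahead of mdt-8 at 39.1. Going further up a chain of such neighbours added taf-2, with a peak of 44.3 at Y37E11B.6, 2 genes upstream. That makes 9 of 20 (45%), beside 28.5% over the genome. Whether these genes are transcribed together was not tested, since the files used hold no transcript of that kind.

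Other genes of the transcription machinery were bound at a like rate within the same promoter window, 20 of 62 (32.3%), again beside 15.5% of all genes. The rate differed between the lists below. Of the bound ones, only ints-9 had another coding start nearer, whereas 12 of the 20 bound members had their own start nearest. The large subunit gene of RNA polymerase II, ama-1, had a peak of 52.4 with the summit at -551 bp. Among 9 Mediator genes with other names, 4 were bound: sop-3 at 132, sur-2 at 63.5, cic-1 at 49.2, the gene of the cyclin of the kinase module, and let-19 at 38.7. Among 18 genes of the TATA-binding protein and general factors, 2 were bound, ttb-1 (TFIIB) at 42.7 and cdk-7 at 85.9. The gene of the TATA-binding protein itself, tbp-1, had only a relaxed-list peak of 8.73.

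Further along the transcription cycle, 5 of 12 elongation genes were bound: pafo-1 at 93.6, cdk-12 at 83.3, cdk-9 at 68.5, cdc-73 at 52.5 and emb-5 at 51.7. Of 11 genes of Integrator, the complex that cleaves small nuclear RNAs, 5 were bound, with ints-4 the strongest at 149 and ints-1 next at 71.6. Of 11 genes of polymerase III and small nuclear RNA factors, 3 were bound, snpc-3.4 at 67.5, snpc-4 at 50.9 and tftc-1 at 44.5. The shares of these lists were 41.7%, 45.5% and 27.3% in the same order, beside 15.5% of all protein-coding genes. Lists this short cannot decide whether their shares differ from that of all genes. At the 20 bound genes of all the other transcription lists, CGCAA stood at 4 summits (20%), GAGAGA at 8 (40%) and a GATA site at 3 (15%). The counts among the 20 bound members were 13 for CGCAA, 2 for GAGAGA and 3 for a GATA site. Over all promoter summits the shares were 26.3%, 22.8% and 31.5% in the same order. CGCAA was picked for its excess at the members' summits, so its counts in both sets are not on an equal footing. The differences between both sets of genes were not tested.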

How the data were processed

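Peak lists were analysed, made by the authors from ChIP-seq of 3 libraries in 1 group. The deposited signal of each peak is the authors' value with a control used, on a scale not stated. The deposited −log10 q of each peak was not used for ranking. The sources used here name no aligner and no peak caller. Reads and controls were not analysed here, nor were the lists on ce10. The thresholded ce11 list was used, with the relaxed lists of the pool and of each replicate. The 2 technical libraries of replicate 1 went into 1 alignment and cannot be told apart.

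Gene models came from Ensembl release 115, and products and sequence from RefSeq, both WBcel235. Coordinates count from 1. All transcripts of protein-coding genes gave starts. Where a gene had several promoter peaks, the strongest was used. Intervals are exact Clopper-Pearson at 95%. They cover counting error over genes only, and neighbouring genes that share a peak are not independent. No test was run, because there is 1 group and because the members and lists were chosen with earlier results of these data known. Named genes were all bound members, the members nearest the threshold, unbound members by relaxed signal, and bound genes of the other lists. The roles within Mediator and TFIID, the upstream neighbours and the search over 5-base sequences were added after the calls were seen. The split of the rpb- genes by product was not among the planned results either. The reading of peaks and motifs was tested on simulated data. Python 3.11.15, numpy 2.4.6, scipy 1.17.1 and matplotlib 3.10.9 were used.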

Additional observations from a re-analysis of the deposited data

How the results depend on the processing

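Among the 2265 strongest peaks, 10 members were bound: 4 rpb-, 0 rpoa-, 0 rpc-, 4 mdt- and 2 taf-, with a median signal of 115, 1 GATA site and 0 GAGAGA. With the nearest start, 12 members were bound, with 4 rpb- and 3 mdt-. A promoter of 2000 bp upstream, which takes in 19.8% of all genes, gave 2 rpoa- and 12 mdt- genes, adding rpoa-49, mdt-8, mdt-15, mdt-20, mdt-29 and mdt-30. With the outermost start 0 rpoa- genes were bound, since rpoa-1 was lost. A promoter of 500 bp upstream and 100 bp downstream left 8 members with a shared peak and lost mdt-6 and mdt-19. Within 100 bp of the summit, 5 members had GAGAGA and 2 had CTGCGT. In 1 replicate at a time, the mdt- count was 4 to 7, the median signal 23.8 to 43.3 on that list's own scale, GAGAGA 1 to 2 and CTGCGT 0 to 1. Without replicate 1, mdt-1.2, mdt-22, mdt-26 and taf-10 were lost and rpb-12 and taf-5 gained; without replicate 2, taf-8 was lost and taf-3 and taf-5 gained. The other 60 values stayed within 1.5 times the main count or, for medians, within the interval of the main value. A count past 1.5 times can still lie within the exact interval of the main share. For rpb- with the nearest start it was 36.4%, with the interval 30.8 to 89.1%. No paired analysis was possible because there is 1 group. Small prefixes, with 4 genes each for rpoa- and rpc-, shared promoters and unknown depth limit these comparisons. The causes of the changes were not tested.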
